A study of Homo sapiens with 20 samples.

Results

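Of the 43676 m6A regions merged from the peak lists of 2 human bladder cancer cell lines, 3150 (7.21%) lay in an exon of a long noncoding RNA (lncRNA) gene and in no exon of a protein-coding gene. Each region was placed by the median summit of all peaks that overlapped it, and the exons were those of GENCODE release 44 on the hg38 genome. The 3150 regions fell in 1961 lncRNA genes, which is 10.4% of the 18866 lncRNA genes annotated. A further 824 regions lay in exons of both kinds of gene and were not included. The rule used the positions of the peaks and not their values, although it was set with earlier results of these data known.

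The libraries came from methylated RNA immunoprecipitation sequencing (MeRIP-seq), in which fragmented total RNA is pulled down with an antibody against m6A and read beside an input without antibody. The lines were T24, which is sensitive to cisplatin, and T24R2, a cisplatin-resistant line derived from T24. Each was labelled wild type, was collected at day 3 of confluence, and had 5 pull-down and 5 input libraries. Per the study's methods T24R2 was kept in medium with cisplatin and T24 in the same medium without it, although the labels name no drug. T24R2 is 1 derivative of 1 parental line, so resistance, exposure to the drug and any other property of that derivative cannot be told apart. The labels do not say whether the replicates came from separate cultures, and p-values therefore measure only the spread between these samples.

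m6A (N6-methyladenosine) is placed on RNA by the METTL3-METTL14 complex, removed by the demethylases FTO and ALKBH5, and bound by YTH-domain proteins. The complex acts within the sequence context DRACH (D stands for any base but C, R for a purine and H for any base but G), and GGAC is its best known core. LncRNAs carry the mark as mRNAs do, and in lncRNAs such as MALAT1 it is known to change RNA structure and protein binding.

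The windows below span 50 nt on each side of the region position, 5′ to 3′ on the lncRNA strand, with every DRACH match in capitals. They were taken from the hg38 genome and are shown as examples of the windows in which the motifs were counted. The region of the HOTTIP window (chr7:27205348-27205448, plus strand) was called in T24 only.
HOTTIP: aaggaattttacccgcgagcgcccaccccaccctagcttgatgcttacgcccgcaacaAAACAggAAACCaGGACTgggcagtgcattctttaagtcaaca

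The regions of the CEBPA-DT window (chr19:33304677-33304777, plus strand) and the FIRRE window (chrX:131795399-131795499, minus strand) were called in T24R2 only.
CEBPA-DT: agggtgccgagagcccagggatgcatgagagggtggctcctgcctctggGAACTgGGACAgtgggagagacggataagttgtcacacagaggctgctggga
FIRRE: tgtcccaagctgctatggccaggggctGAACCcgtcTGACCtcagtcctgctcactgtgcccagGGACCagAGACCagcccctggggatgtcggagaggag

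Regions called in every library of both lines included those of the windows in ZNF566-AS1 (chr19:36490131-36490231, plus strand) and NUDT19-DT (chr19:32691478-32691578, minus strand), which had high enrichment, and NORAD (chr20:36050149-36050249, minus strand), whose window held no DRACH match on the sense strand. The NORAD region is wider than its window, and DRACH was not counted outside the window.
ZNF566-AS1: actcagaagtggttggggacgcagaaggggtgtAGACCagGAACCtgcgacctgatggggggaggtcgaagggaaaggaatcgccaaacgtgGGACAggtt
NUDT19-DT: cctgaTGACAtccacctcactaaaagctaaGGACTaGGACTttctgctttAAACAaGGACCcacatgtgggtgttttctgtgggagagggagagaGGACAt
NORAD: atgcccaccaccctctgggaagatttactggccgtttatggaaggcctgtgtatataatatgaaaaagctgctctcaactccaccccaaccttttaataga

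The windows differed in how many matches they held. NUDT19-DT had 6 DRACH matches on the sense strand and 1 on the antisense strand. HOTTIP had 3 on the sense strand, with the nearest methylatable A 10 nt from the region position, and CEBPA-DT had 2, the nearest 1 nt away. GGAC itself occurred 4 times in NUDT19-DT, 2 times in ZNF566-AS1 and 0 times in NORAD.

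Most lncRNAs held 1 region and a few held many. Of the 1961 genes, 1285 (65.5%) held 1 region, 414 held 2, 205 held 3 or 4, and 57 held 5 or more. XACT, a very long X-linked lncRNA known from pluripotent cells, held the most with 23. Its last exon alone spans 347300 nt, and the counts were not divided by length. ENSG00000242588 followed with 13, then MIR4435-2HG, a microRNA host transcript, with 11, SLC5A4-AS1 with 9, and TTC28-AS1, LINC00649 and LINC00662 with 8 each. 918 of the marked genes were known by a gene identifier only, and together they held 1228 regions.

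Grouped by the kind of gene symbol, antisense lncRNAs (symbols that contain -AS) held 639 regions in 353 of 1835 genes. Divergent transcripts (DT, started beside a neighbouring promoter) held 323 in 199 of 588, and long intergenic RNAs (LINC) held 474 in 255 of 2253. Hosts of small nucleolar RNAs were marked in 7 of 32 genes, with 17 regions, and the abundant hosts GAS5, SNHG1 and ZFAS1 held none. Hosts of microRNAs were marked in 21 of 83 genes, with 48 regions.

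764 of the regions (24.3%) lay within the body of a protein-coding gene, in its introns, and 161 of these were on that gene's own strand while 603 were on the opposite strand only. 796 regions (25.3%) were within 1000 nt of a protein-coding exon and 239 overlapped one by some base. 116 regions were in exons of more than 1 lncRNA gene, and for 79 of them these lay on both strands. The share inside gene bodies was 24.1% ± 0.69 per T24 library and 24.2% ± 0.72 per T24R2 library (SD, n = 5 each, a difference of 0.122 points, exact permutation p = 0.817). The peaks carry no strand, so at such places reads of the lncRNA and of its neighbours cannot be told apart.

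Along the transcripts, 1633 regions (51.8%) were in a last exon, 679 (21.6%) in a single-exon transcript, 487 (15.5%) in a first exon and 351 (11.1%) in an internal exon. The exonic bases of the same transcripts were split as 53.5%, 21.0%, 13.4% and 12.1%, so regions followed the bases closely at this level. By exon length the shares of regions and of bases differed. Leaving out XACT, whose last exon holds a large share of the bases, exons of 200 to under 400 nt held 10.9% of the regions and 5.51% of the bases, and exons of 400 to under 1000 nt held 24.3% and 12.9%. Exons of 3000 nt or more held 17.8% of the regions and 35.1% of the bases. Exons under 200 nt held 5.12% and 6.87%. The bases came only from transcripts that held a region. A short transcript enters only by having a region, so part of this contrast by length is set by that choice.

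Within last exons the regions lay toward the start. With each exon cut into 4 equal parts from 5′ to 3′, the parts held 36.9%, 25.7%, 19.5% and 17.9% of them, and the median distance from the start of the exon was 430 nt, in exons with a median length of 1666 nt. For the regions called in all 10 libraries the parts held 40.8%, 26.3%, 16.8% and 16.1%. In spliced transcripts, 18.2% of regions were within 100 nt of a splice junction against 16.2% of the bases. That share was 13.0% of the regions called in all 10 libraries and 23.2% of those called in 1 library. These shares describe the regions and were not tested.

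The sequence context set the sense strand apart. A DRACH match lay within 50 nt of the position on the sense strand at 92.1% of the 3071 regions with exons on 1 strand, and on the opposite strand of these windows at 74.8%. GGAC, which is part of DRACH wherever A, C or T follows it, was found at 43.6% and 23.4%. Coding-sequence regions held DRACH at 87.8% and 70.9%, and 3′ UTR regions at 93.5% and 76.6%. Among 599 lncRNA regions with a sense strand inside protein-coding genes of the opposite strand, the lncRNA strand again held more DRACH, at 91.7% against 72.5%, and more GGAC, at 43.9% against 23.0%. Regions called in all 10 libraries held GGAC at 46.8% on the sense strand and 20.7% on the antisense strand, and regions called in 1 library at 40.5% and 24.1%.

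The plot of GGAC matches by distance shows the same contrast in 20-nt bins. On the sense strand the count rose from 8.60 per 100 regions at 180 nt upstream to 12.7 at the position and fell to 6.58 at 180 nt downstream. On the antisense strand it was 5.93 at the position and never exceeded 7.20.

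**Figure D1:**
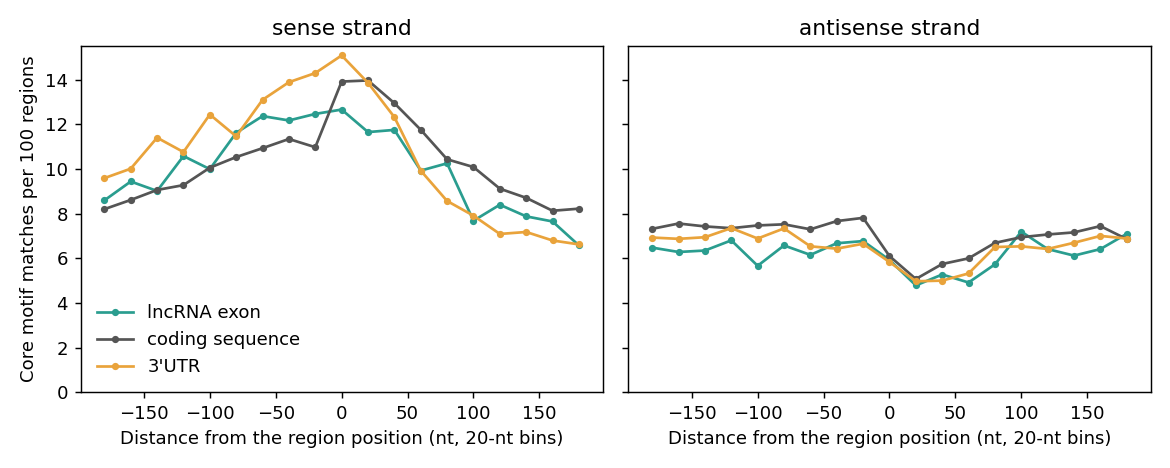
GGAC matches per 100 regions (y axis) by distance from the region position in 20-nt bins (x axis), for lncRNA exon, coding-sequence and 3′ UTR regions, on the sense strand (left) and the antisense strand (right). The lncRNA curve reaches 12.7 at the position on the sense strand, where the antisense curve stands at 5.93.

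The number of lncRNA exon regions per library separated the lines. T24 libraries held 1405, 1055, 1185, 1425 and 1174 of them (replicates 1 to 5) and T24R2 libraries 1548, 1527, 1566, 1706 and 2117. Every T24R2 library was above every T24 library, with means of 1249 ± 160 and 1693 ± 247 (SD, n = 5 each), a difference of 444 (exact permutation test, two-sided p = 0.00794, the smallest that 5 against 5 allows). The number of lncRNA genes called also rose, from 955 ± 101 to 1234 ± 135 (n = 5 each, exact permutation p = 0.00794).

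The whole lists were longer in T24R2 in the same way, with 14944 to 20658 regions of any kind per T24 library and 21061 to 30599 per T24R2 library. As a share of the regions called, lncRNA exon regions made up 6.89% ± 0.37 (SD, n = 5) of a T24 list and 7.08% ± 0.21 (n = 5) of a T24R2 list. The lines overlapped (exact permutation test, p = 0.365). With each peak list cut to the same number of rows, the difference in number was 27.6 (exact permutation p = 0.405, n = 5 each). No read counts were in the files used here, so sequencing depth is unknown and its part in the list lengths was not tested.

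T24R2 replicate 5 had the longest list, and it alone called 294 of its lncRNA exon regions, where the other 9 libraries each had 18 to 120 such regions. Without it the difference in number was 338 (n = 5 and 4, exact permutation p = 0.0238).

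**Figure D2:**
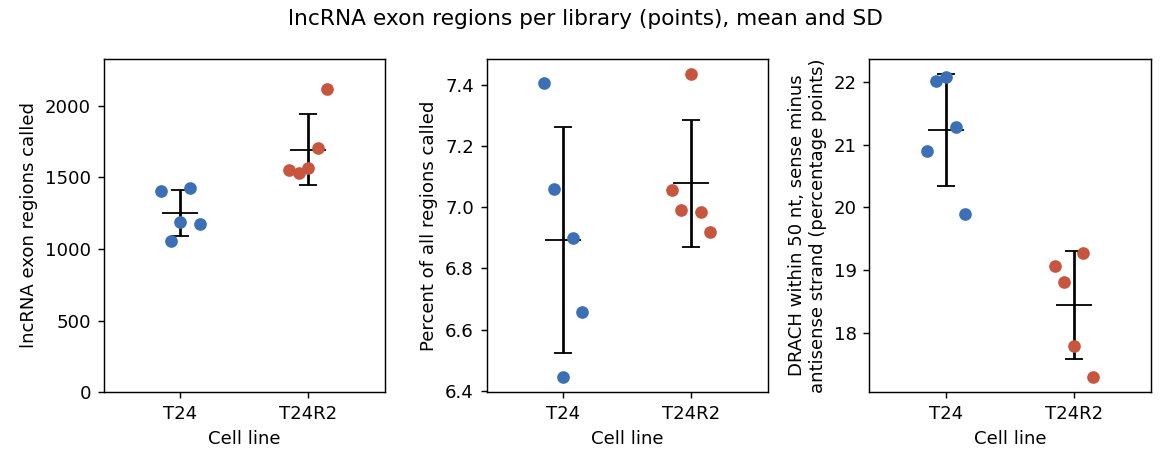
3 measures per library, with 5 points per line and the mean and SD in black: the number of lncRNA exon regions called (left), their percent of all regions called (middle) and the DRACH share on the sense strand minus that on the antisense strand in percentage points (right). The lines do not overlap in the left and right panels and do overlap in the middle one.

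The sense bias of the DRACH motif was smaller in T24R2. The share of lncRNA exon regions with DRACH on the sense strand minus the share on the antisense strand was 20.9, 22.0, 22.1, 21.3 and 19.9 percentage points in the T24 libraries and 19.1, 18.8, 17.8, 19.3 and 17.3 in the T24R2 libraries. All 5 T24R2 values were below all T24 values, with means of 21.2 ± 0.90 and 18.5 ± 0.86 and a difference of -2.78 points (SD, n = 5 each, exact permutation p = 0.00794). It was -2.34 points with lists cut to the same number of rows (exact permutation p = 0.0238, n = 5 each). Sense shares were 94.0% in T24 and 92.8% in T24R2, and antisense shares 72.8% and 74.3%. The bias was also smaller in T24R2 in coding sequence, at 20.9 ± 0.47 and 19.7 ± 1.1 points (SD, n = 5 each, a difference of -1.21, exact permutation p = 0.0238), and in 3′ UTRs, at 19.8 ± 0.33 and 18.5 ± 0.71 (n = 5 each, a difference of -1.23, exact permutation p = 0.00794). Coding-sequence regions held 20.3 points on average over the 10 libraries against 19.8 points in lncRNA exons, a difference of -0.49 (exact sign-flip test, p = 0.229, higher in lncRNA exons in 3 of 10 libraries). Taken as lncRNA exon minus coding sequence, a comparison added after the data were seen, the bias was 0.29 ± 0.91 points (SD, n = 5) in T24 and -1.28 ± 0.93 (n = 5) in T24R2, which differed by -1.57 points (exact permutation p = 0.0476).

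Called lncRNA exon regions stood high by fold enrichment and lower by significance. The fold enrichment of pull-down over input was turned into a percentile within each library, where 100 is the highest, because the lists differ in length. lncRNA exon regions averaged the 57.9th percentile ± 1.55 (SD, n = 10 libraries), coding-sequence regions 48.8, 3′ UTR regions 53.2 and intronic regions 50.7. The differences were 9.06, 4.71 and 7.16 points, each in the same direction in 10 of 10 libraries (exact sign-flip test over libraries, p = 0.00195, the smallest that 10 libraries allow). Median fold enrichment was 7.31 to 8.84 across libraries in lncRNA exons and 6.23 to 7.74 in coding sequence.

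By the percentile of −log10 q, the order against mRNA exons turned round. lncRNA exon regions averaged 49.5 ± 2.94, coding sequence 56.2 and 3′ UTR 57.6, so lncRNA exons were lower by -6.70 points than coding sequence (8 of 10 libraries, exact sign-flip p = 0.00781) and by -8.06 points than 3′ UTRs (10 of 10 libraries, exact p = 0.00195). They remained 9.85 points above intronic regions (10 of 10 libraries, exact p = 0.00195). The q value depends on read coverage as well as on enrichment, and the input level of these transcripts was not analysed here.

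**Figure D3:**
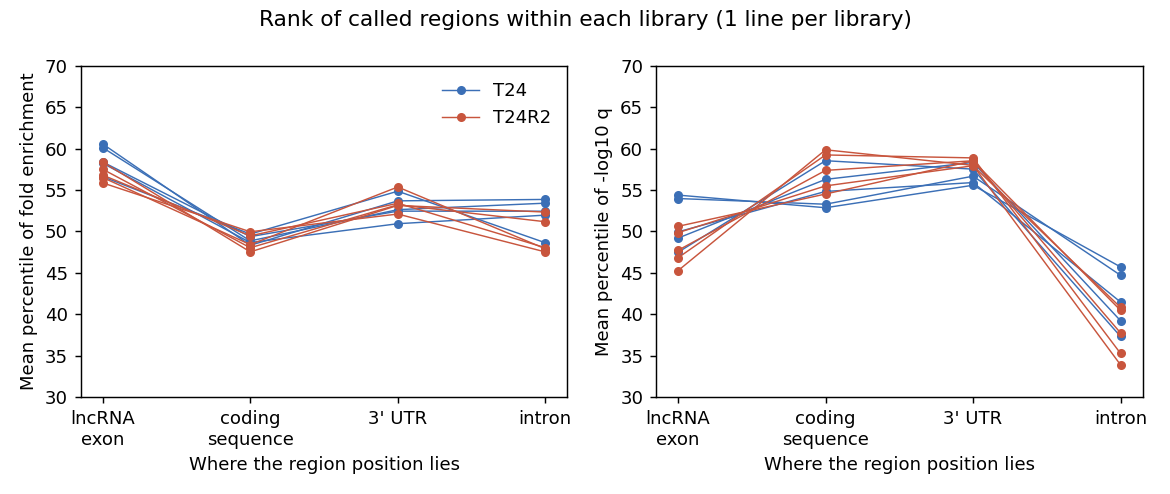
Mean percentile of the called regions within each library (y axis, 0 to 100 scale shown from 30 to 70) by where the position lies, with 1 line per library, for fold enrichment (left) and −log10 q (right). lncRNA exons are highest of the 4 classes in all 10 libraries on the left, and lie below 3′ UTRs in all 10 on the right.

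Among the abundant nuclear lncRNAs, the region of MALAT1 and that of NEAT1 went against this average, low by fold and higher by −log10 q. MALAT1 and NEAT1 each held a region called in all 10 libraries, yet MALAT1 (chr11:65499082-65500877, its single exon, also within TALAM1 on the other strand) had folds of 1.82, 1.89, 2.31, 2.33 and 1.73 in T24 and 2.66, 3.42, 2.29, 3.04 and 2.44 in T24R2. These were mean percentiles of 0.349 and 2.13 by fold, and 24.8 and 64.1 by −log10 q. NEAT1, the scaffold of paraspeckles, had folds of 2.16, 2.50, 3.11, 2.31 and 3.79 in T24 and 3.99, 4.62, 3.25, 4.82 and 4.10 in T24R2 at chr11:65423711-65424983, with mean percentiles of 3.27 and 12.5 by fold, and 34.6 and 75.8 by −log10 q. Neither region passed the test of a rank difference between the lines (limma on percentiles, adjusted p = 0.916 and 0.503). At fold percentiles this low a difference in rank could hardly show. In both regions most T24R2 folds were above all T24 folds.

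NORAD, which binds PUMILIO proteins and is induced by DNA damage, held 1 region, at chr20:36049620-36050951. Its folds were 4.97, 4.43, 6.67, 6.72 and 5.52 in T24 and 6.95, 7.94, 5.24, 7.90 and 3.98 in T24R2, and the lines overlapped. Its mean percentile was 31.5 and 42.1 by fold, and 88.5 and 90.3 by −log10 q. In CYTOR the main region (last exon, chr2:87583174-87585213) had folds of 9.93 to 16.5 in T24 and 7.63 to 11.4 in T24R2, with a difference of -14.4 points (SE 6.82, limma adjusted p = 0.376). Over the list of nuclear and architectural lncRNAs, 8 of 10 annotated genes held 19 regions, 9 of them called in all 10 libraries. FTX, from the X-inactivation centre, held 6 of these regions, and none was called in 1 line only.

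At the other end, the strongest regions shared by the lines stood at a percentile of 87.3 or more in every library. ZNF566-AS1 (chr19:36489598-36490581) had folds of 34.4, 17.9, 18.2, 16.2 and 16.5 in T24 and 15.3, 31.7, 15.4, 19.3 and 26.6 in T24R2. NUDT19-DT, divergent to a gene for a coenzyme A hydrolase (first exon, chr19:32691409-32691896), had 21.4, 17.1, 16.8, 19.8 and 18.6 and then 26.3, 27.4, 25.1, 23.7 and 15.3. The lines overlapped in both, although 4 of 5 T24R2 folds of NUDT19-DT were above all its T24 folds. At percentiles this close to 100 a difference in rank between the lines could hardly show. ASH1L-AS1, BAIAP2-DT, LCDR, LINC03072, DTX2P1-UPK3BP1-PMS2P11, ENSG00000274220, ENSG00000260563 and ENSG00000289586 completed the 10 strongest, with lowest percentiles of 87.3 to 92.7. DTX2P1-UPK3BP1-PMS2P11 is a transcript through pseudogenes, where reads of near-identical copies may be split.

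Most lncRNA exon regions were called in some libraries and not in others. 595 (18.9%) were called in all 10 libraries, where 21.9% of all 43676 regions were, and 869 (27.6%) in 1 library, where 27.9% of all regions were. Coding-sequence regions were called in all 10 libraries in 32.8% of cases and 3′ UTR regions in 36.5%. The share was 19.2% for 5′ UTR regions, 7.34% for intronic and 6.12% for intergenic regions. The regions called in all 10 libraries were wider (median 669 bp) than those called in 1 (130 bp). Libraries of the same line shared more, with a mean of 0.621 of the lncRNA exon regions of 2 T24 libraries shared (intersection over union) and 0.626 for 2 T24R2 libraries, against 0.456 between the lines.

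129 lncRNA exon regions (4.10%) were called in all 5 T24R2 and no T24 library, where 3.02% of all regions were, and 52 (1.65%) in all 5 T24 and no T24R2 library, where 1.05% of all regions were. A split of 5 against 0 gives an exact Fisher p of 0.00794, which became 0.195 after Benjamini-Hochberg adjustment over all 43676 regions, so 0 regions passed (0% of all regions). At an unadjusted p under 0.05 by the same exact test there were 281 lncRNA exon regions with more T24R2 calls (7.11% of all regions were called so) and 116 with more T24 calls (2.09%). With lists cut to the same number of rows, 60 regions were called in T24R2 only and 60 in T24 only, and 47 and 38 of these were among the 129 and 52. With a −log10 q of at least 10 the counts were 67 and 15, and with rows that cover 50% of the region 100 and 21. The shares over all regions were not counted at these other settings, so these counts have no baseline.

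**Figure D4:**
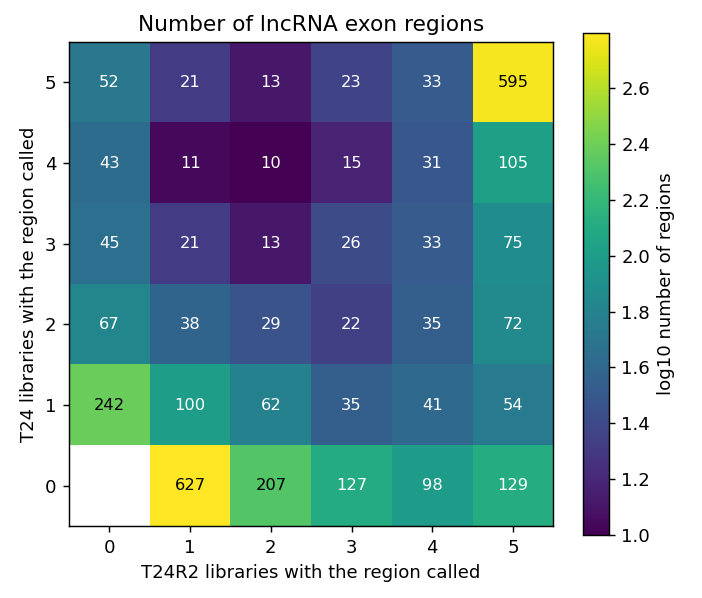
Number of lncRNA exon regions by the number of T24 libraries (y axis) and T24R2 libraries (x axis) in which they were called, with colour on a log10 scale. The corners hold 595 regions called in all 10 libraries, 129 called in T24R2 only and 52 called in T24 only.

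Line-only regions lay mostly in lncRNAs without other lncRNA exon regions called in the other line. 105 of the 129 T24R2-only regions (81.4%) were in lncRNAs with no such call in T24, and 46 of the 52 T24-only regions (88.5%) in lncRNAs with none in T24R2. For a gene with 1 region this holds by construction. In genes with 2 or more regions it was 58 of 82 and 25 of 31. Of the marked genes, 101 were called in every T24R2 and no T24 library (5.15% of the 1961) and 39 the other way (1.99%). The same share over other genes was not counted, and the T24R2 lists were longer throughout, so these 2 counts have no baseline. 10 of the T24R2-only and 2 of the T24-only regions sat in a gene with another region called in all 10 libraries. No gene held line-only regions of both directions. A region without a call may lack m6A or lack the RNA, and these cannot be told apart without the expression of the lncRNAs, which was not analysed here.

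By kind of lncRNA, divergent transcripts had 16 T24R2-only regions (4.95% of their regions), antisense lncRNAs 28 (4.38%) and LINC genes 20 (4.22%), each near the 4.10% of all lncRNA exon regions. T24-only regions numbered 0, 4 (0.626%) and 17 (3.59%), where 1.65% of all lncRNA exon regions were T24-only. Of the T24-only regions, 2 (3.85%) were within 1000 nt of a protein-coding exon, where 28 of the T24R2-only regions (21.7%) and 180 of those called in all 10 libraries (30.3%) were. These counts are descriptions, and the differences between kinds were not tested.

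On the T24 side, XACT held the most calls. All 67 calls over its 23 regions were in T24 libraries, which held 13, 11, 15, 17 and 11 of the regions, and the T24R2 libraries held 0. 6 of its regions were called in every T24 library. The strongest, in the last exon, had folds of 13.4, 15.8, 17.4, 15.8 and 10.0, and its next (chrX:113822982-113823623) 14.4, 8.56, 15.9, 11.9 and 13.5. The remaining regions reached lower ranks and were called in 1 to 5 T24 libraries.

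UCA1, a lncRNA named for urothelial carcinoma where it was found, was called in T24 only. Its region in the last of 3 exons (chr19:15834752-15835573) had folds of 4.33, 4.66, 7.31, 8.51 and 4.66 and a mean percentile of 33.1. LINC01764 has an exon at the same place. HOTTIP, transcribed from the distal end of the HOXA cluster and known to recruit chromatin regulators to it, held 3 regions with 10 T24 calls and 0 T24R2 calls. The strongest (chr7:27204703-27205718, last exon) had folds of 20.3, 11.3, 11.5, 16.7 and 9.90.

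GATA3-AS1 is transcribed from the gene locus of GATA3, a transcription factor of the urothelium. It held 3 regions with 13 T24 calls and 0 in T24R2, and the strongest (chr10:8052244-8052535, last exon, inside the GATA3 body) had folds of 17.3, 12.6, 8.71, 11.4 and 8.32. The other T24-only regions of the highest rank were in LINC00161 (folds of 12.0, 9.21, 14.9, 11.9 and 10.9), LINC01106, LINC01694 and ENSG00000287235. LINC01694 held 5 regions and 15 T24 calls, and LINC01106 held 4 regions and 11 T24 calls.

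On the T24R2 side the calls were spread over more genes. CT75 had, in an internal exon, folds of 16.0, 16.6, 12.9, 14.5 and 13.8, and its lowest percentile, 90.9, was the highest of any line-only region. CEBPA-DT, divergent to the gene of the transcription factor CEBPA (chr19:33304342-33304919), had 19.5, 16.1, 14.8, 13.2 and 19.8. LINC02152 (chr16:8298951-8299733) had 19.9, 12.6, 15.6, 17.3 and 16.8. All 3 were called at high folds in each of the 5 T24R2 libraries.

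LINC00943 (first exon, chr12:126726138-126726761) had folds of 12.9, 17.8, 9.97, 13.4 and 16.4. The other 4 strongest were known by identifier only, ENSG00000268673, ENSG00000276627, ENSG00000286853 and ENSG00000258744, with folds between 10.6 and 24.6. FIRRE, an X-linked lncRNA that tethers chromosomal loci in the nucleus, was called in T24R2 only at its last exon (chrX:131795055-131795975), with folds of 8.15, 30.9, 17.4, 14.5 and 8.72. Of these, replicate 2 was far above the rest.

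**Figure D5:**
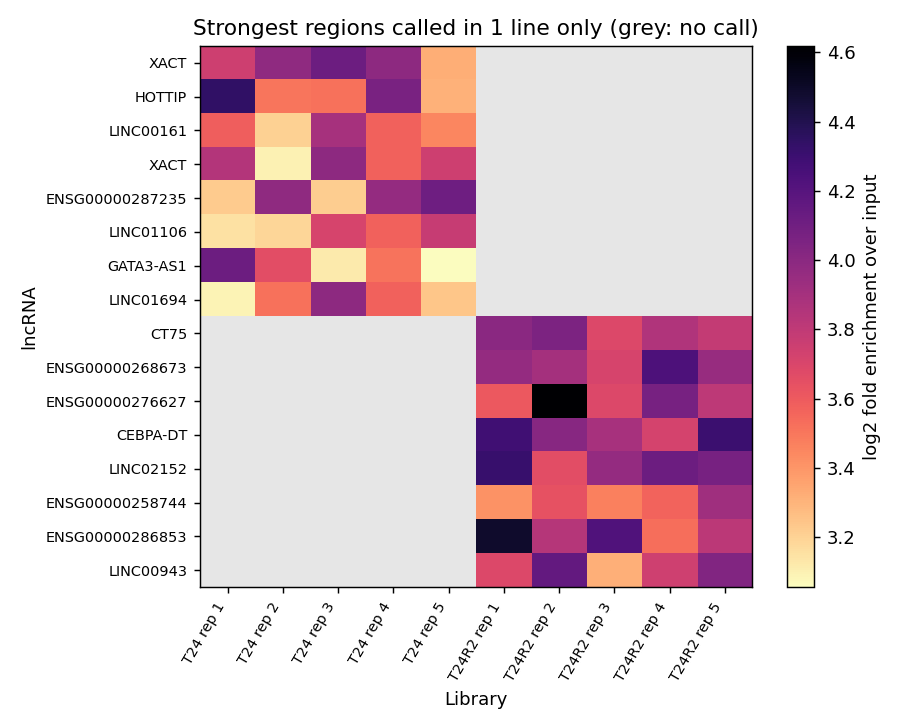
log2 fold enrichment over input (colour) of the 8 strongest regions called in every T24 and no T24R2 library and the 8 called in every T24R2 and no T24 library (rows), by library (columns), with grey for no call. The choice of rows fixes the grey blocks, and the colours show folds from 8.32 in GATA3-AS1 to 24.6 in ENSG00000276627.

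Further lncRNAs were called in T24R2 and never in T24 with several regions each. LINC01127 had 4 regions and 15 calls, LURAP1L-AS1 had 4 and 12, SWINGN had 5 and 11, DGCR5 had 4 and 10, and THAP7-AS1 and STX17-DT had 3 regions and 13 calls each. ITGB2-AS1, antisense to an integrin gene, had 3 regions and 11 calls. APPAT and SLC5A4-AS1 came close to this pattern, with 1 T24 call against 23 and 18 T24R2 calls.

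The lncRNAs of the HOX clusters, which lie among the genes that set position along the body axis, held 18 regions in 9 of 16 genes, and HOXA-AS3 had the 1 region called in all 10 libraries (median folds of 8.47 in T24 and 12.6 in T24R2). HOXC-AS2 had 3 regions with 9 T24R2 calls and 0 T24 calls, none of them in all 5 libraries, and HOTTIP had 10 T24 calls and 0 T24R2 calls. HOXA-AS3 held the 1 HOX region that could enter the rank test, which it did not pass.

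Of the lncRNAs known from bladder cancer, 7 of 11 held 14 regions. LINC00958, a lncRNA studied in bladder cancer, was called in all 10 libraries in its last exon (chr11:12979661-12980370), with folds of 8.81, 6.72, 8.77, 12.7 and 10.3 in T24 and 14.6, 14.8, 14.5, 11.7 and 17.4 in T24R2. 4 of the T24R2 values were above all T24 values, and the rank difference of 22.5 points (SE 7.99) did not pass (limma adjusted p = 0.224). LINC00511 had 1 region called in all 10 libraries and 1, in its first exon, called in T24 only, with a median fold of 7.98. H19, GAS5 and HOTAIR held no region.

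Among lncRNAs of the p53 and DNA damage response, 5 of 8 held 15 regions, and none was called in all 5 libraries of 1 line and none of the other. LINC-PINT, induced by p53, had 7 regions with 25 T24 calls and 15 T24R2 calls. Its 3 regions called in all 10 libraries had rank differences of 7.57, 21.3 and -38.8 points (SE 16.4, 8.01 and 15.9), of which none passed. PURPL, a p53-regulated lncRNA, had 4 regions with 0 T24 calls and 6 T24R2 calls, none of them in more than 2 libraries.

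For the 595 lncRNA exon regions called in all 10 libraries, the change in rank could be tested region by region. limma on the percentiles, fitted on all 9577 regions called in all 10 libraries and adjusted over them, called 3 lncRNA exon regions higher in T24R2 (0.731% of all regions tested were) and 3 higher in T24 (0.167% of all). The median difference was 2.76 points in lncRNA exons and 4.84 over all regions tested. The median SE was 10.4 points, and the 6 regions called differed by 36.9 to 52.3 points in size. In simulated data a shift of 20 points was called in 1% of regions and a shift of 40 points in 37%. A region that did not pass may therefore still differ in rank. At an unadjusted p under 0.05 the same fit held 57 lncRNA exon regions higher in T24R2 (10.8% of all regions tested were) and 27 higher in T24 (3.13% of all).

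LNMICC had the lowest adjusted p, a call that was lost with lists of the same length, with a −log10 q of at least 10 and with the replicate block. Its region in the last exon (chr8:81279796-81280360) had folds of 5.73, 5.35, 7.05, 5.88 and 6.67 in T24 and 15.1, 15.9, 9.98, 13.5 and 12.6 in T24R2. The lines did not overlap, and the difference was 50.9 points (SE 6.66, limma adjusted p = 0.0083). Its position was 358 nt from a protein-coding exon. The peaks carry no strand, so reads of the lncRNA and of that neighbour cannot be told apart. ENSG00000286416 (44.7 points, SE 8.39) and ENSG00000248161 (39.5 points, SE 8.06) also ranked higher in T24R2 with no overlap of folds. The latter lies within SLC39A8, a gene for a zinc and manganese transporter.

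Of those higher in T24, APCDD1L-DT (first exon, chr20:58515471-58516115) had folds of 9.71, 35.6, 15.3, 10.9 and 8.36 in T24 and 7.18, 5.22, 4.46, 6.62 and 3.78 in T24R2. All T24 values were above all T24R2 values, and the difference was -52.3 points (SE 10.3, limma adjusted p = 0.039). This first-exon position was 222 nt from a protein-coding exon, so the limit given for LNMICC holds here too. Another region of APCDD1L-DT, in its last exon (chr20:58618723-58619749), was called in all 5 T24R2 and no T24 library, with folds of 10.3 to 16.4, and over its 5 regions the gene had 10 T24 and 20 T24R2 calls. LINC00632, known as the host transcript of the circular RNA CDR1as (last exon, chrX:140775438-140776330), had folds of 10.6, 8.25, 11.6, 8.48 and 7.31 and then 5.80, 5.95, 4.35, 6.96 and 5.21, with a difference of -36.9 points (SE 7.52, adjusted p = 0.0476). ENSG00000291186 fell by 43.9 points (SE 8.53). The counts depended on the settings. Leaving out any 1 library gave 0 or 1 regions higher in T24, leaving out any 1 T24R2 library gave 1 higher in T24R2, and leaving out any 1 T24 library gave 2 to 4 higher in T24R2. With lists of the same length 0 regions ranked higher in T24R2 and 2 in T24, and with a −log10 q of at least 10 there were 0 and 1.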

How the data were processed

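MeRIP-seq peak lists of 5 T24 and 5 T24R2 pull-down libraries, called over input, and 1 merged list of regions were analysed. According to the study's methods and the submitters' processing notes, the authors aligned reads to hg38 with STAR 2.7.0, kept uniquely mapped, deduplicated reads with SAMtools 1.10 (which lowers coverage of near-identical copies and of very abundant RNAs) and called peaks per library with MACS2 3.0.0a6. The deposited values are the fold enrichment (a ratio of pull-down to input) at the summit, −log10 p, −log10 q and a display score. The deposited positions of summits (other units) and of the merged regions are in base pairs. Every row had a −log10 q of at least 2. The lists held 17203 to 33120 rows. No counts were in the files used here, so depth is unknown and no counting interval can be given.

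A region was called in a library if any peak row of that library overlapped it, with the value of the highest row. Positions were matched to GENCODE 44, a later release than the one the authors used. Values were turned into percentiles within each list. Lines were compared by exact two-sided permutation tests over 252 assignments, and classes by sign-flip tests over 10 libraries. Calls were compared by Fisher's exact test, adjusted by Benjamini-Hochberg over all 43676 regions. Ranks were compared by limma 3.58.1 (R 4.3.3), adjusted in the same way over the 9577 regions called in all 10 libraries. The limma script was tested on simulated data with the means and residual SDs of the regions. It called 1% of regions shifted by 20 points, 37% of those shifted by 40 and 0.0107% of those not shifted. Python 3.11.15, numpy 2.4.6, pandas 2.3.3, scipy 1.17.1 and matplotlib 3.10.9 were used.

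Regions named in the text were the 10 genes with most regions, the 8 strongest line-only regions per direction (by lowest percentile), the 10 strongest called in all 10 libraries, those past the rank test and the members of the gene lists. Other genes with line-only calls, and the features of exons, were named after their values were seen. The members and lists were chosen with earlier results of these data known. Genes used for sample checks were counted but not named. Alternatives comprised a stricter q, lists of equal length, other overlap and exon rules, another window, −log10 q and log2 fold in place of the fold percentile, leaving out each library, and the replicate block.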

Additional observations from a re-analysis of the deposited data

Results flagged for a closer look

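In groups of 5 libraries, 3 of the 20 groups of values held a library whose gap to the nearest other exceeded Dixon's 95% critical share of the range, which chance passes in about 1 group in 20. lncRNA exon regions made up 7.44% of the regions in T24R2 replicate 3, with a gap of 0.735 of the range, above the other 4. T24R2 replicate 5 had 294 lncRNA exon regions called in no other library, with a gap of 0.740, and it also had the longest list. T24 replicate 5 had DRACH on the sense strand at 93.3% of its lncRNA exon regions, with a gap of 0.730, below the other T24 libraries.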

How the results depend on the processing

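Of 190 alternatives over 12 results, 147 kept the direction and the side of the threshold. With a −log10 q of at least 10, the share difference was -0.0837 points, that of the share inside protein-coding gene bodies -0.526 (0.122 as reported), and the DRACH bias of lncRNA exons minus coding sequence -1.59 (p = 0.00195 by the exact sign-flip test). 67 and 15 regions were then called only in T24R2 and only in T24, and 0 and 1 ranked higher. With lists of the same length the number differed by 27.6 (p = 0.405, exact permutation), the share by -0.160 and the share in gene bodies by -0.393, 60 regions were called only in T24R2 and 0 ranked higher there. Without regions that touch a protein-coding exon the share in gene bodies differed by -0.0337, and outside gene bodies the DRACH bias minus coding sequence was -1.66 (exact p = 0.00195). In 25-nt windows the DRACH bias of all lncRNA exon regions minus coding sequence was 0.0250 (-0.49 as reported). By the percentile of −log10 q, lncRNA exons were -6.70 points from coding sequence and -8.06 from 3′ UTRs, and 22 and 10 regions ranked higher in T24R2 and T24. Allowing 4 of 5 against 1 of 5 libraries gave 322 T24R2 and 127 T24 regions, and rows covering 50% of the region gave 21 for T24. The shares over all regions were not counted at these settings, so the counts of regions called have no baseline.

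Leaving out each library gave differences in number of 338 to 488, in share of 0.0715 to 0.312 and in DRACH bias of -3.12 to -2.49. The share in gene bodies ranged from -0.137 to 0.379, and it turned to -0.137 without T24 replicate 1 and -0.0446 without T24R2 replicate 2. Regions called only in T24R2 ranged from 134 to 159 and only in T24 from 52 to 67. Regions ranked higher in T24R2 ranged from 1 to 4 and in T24 from 0 to 1.

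The deviations of same-numbered replicates had correlations of -0.0304 to 0.111 over 9577 regions, within the -0.134 to 0.140 of other pairs. The labels give a shared number only, and these correlations cannot exclude a shared preparation. With the replicate number as a block, the difference in number (444) and in DRACH bias (-2.78) had p = 0.0625, the smallest exact p that 5 pairs allow, and 0 and 0 regions ranked higher in T24R2 and T24. 57 and 27 lncRNA exon regions had an unadjusted p under 0.05 without the block. The causes of these changes were not tested. Depth was not known, and with 5 libraries per line no single split of calls could pass the adjusted test.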
